A study of Homo sapiens with 12 samples.

Results

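Integrins are cell surface receptors built from 1 alpha and 1 beta subunit, and laminins are the cross-shaped heterotrimers of basement membranes to which several of them bind. The genes were chosen by symbol, as protein-coding genes named ITGA, ITGB, LAMA, LAMB or LAMC with a number or letter, a rule that uses no measured value, although earlier results of these data were known when the family was picked. They are 38 of the 20056 protein-coding genes in the annotation, 26 integrin and 12 laminin genes. The modification under study was N4-acetylcytidine (ac4C), a cytidine that carries an acetyl group in RNA, and the cells were RBE, a line of human intrahepatic cholangiocarcinoma. Cells made stable with a lentiviral short hairpin RNA against NAT10, the enzyme that acetylates cytidine, and selected with puromycin were compared with cells carrying a control hairpin named sh-NC. RNA fragments bound by antibodies to ac4C were sequenced, as was input RNA, in 12 libraries that form 4 groups of 3. The labels describe transduction and puromycin for the NAT10 hairpin, from resistant colonies, and do not say how many clones were pooled or whether replicates came from separate cultures.

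The values are 1 list of peaks per arm, with 34365 peaks for the control and 28047 for the knockdown. The control list bears the name of the control hairpin, and the other list was taken as the knockdown list because it is the only one left. Neither list separates the replicates, so the spread between them is not measured, every difference below has no replicate check, and the arms were not tested against each other. Sequencing depth is unknown, and fewer acetylated copies, less RNA of a gene and fewer reads cannot be told apart. Peaks that overlapped a gene span by at least 1 bp were counted for that gene. Each peak also has a score given by the authors, on an unstated scale, below 10 for 1535 control and 1244 knockdown peaks. Scores were read within their own list, except that some counts applied the same cutoff of 10 or 20 to both lists. Over all protein-coding genes, 3547 of 30411 control and 3690 of 25027 knockdown peaks scored 20 or more. That cutoff therefore need not mean the same in both lists. NAT10 RNA was not measured in these lists, so they do not check the arm labels. Of the bile duct markers, KRT7 (11 control and 10 knockdown peaks), KRT19 (5 and 4), KRT8 (9 and 10), KRT18 (3 and 3) and SOX9 (5 and 6) had peaks in both lists, and EPCAM had none.

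Most epithelial integrins pair with the common beta subunit ITGB1. ITGA3, ITGA6 and the hemidesmosome subunit ITGB4 serve laminin receptors, ITGA2 binds collagen, and ITGA5 and ITGAV read the RGD motif of fibronectin, vitronectin and latent TGF-beta. On the ligand side LAMA3 and LAMB3 are chains of the laminin under hemidesmosomes, and LAMA5, LAMB1 and LAMC1 form laminin-511 of adult epithelia. In bile duct epithelium and its tumours these molecules hold cells to the basement membrane and signal through focal adhesion kinase.

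Sequence was at hand at 2 places where a peak lay on a member. RefSeq start windows of GRCh38.p14 were available for 26 of the 38 genes, 33 windows in all, and a peak reached 1 of them, at an internal start of ITGB1 on the minus strand of chromosome 10. The knockdown peak there spans 32935536 to 32935896, and the 250 bases just upstream of the start (chr10:32935559-32935808, GRCh38.p14, minus strand) lie wholly within it. They are shown because they are the stretch of a member peak whose letters could be read, with cytidines, the base that NAT10 acetylates, in capitals. The second is the microRNA hairpin MIR4260 inside LAMB3 (chr1:209623444-209623510, GRCh38.p14, minus strand), shown because 24 of its 67 bases, in capitals, fall in a knockdown peak of LAMB3.
ITGB1 internal start: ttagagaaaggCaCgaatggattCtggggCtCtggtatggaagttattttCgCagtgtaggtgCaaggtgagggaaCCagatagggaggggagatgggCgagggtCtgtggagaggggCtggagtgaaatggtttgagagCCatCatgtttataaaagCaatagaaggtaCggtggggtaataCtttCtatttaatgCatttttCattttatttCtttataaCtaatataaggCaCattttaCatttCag
MIR4260: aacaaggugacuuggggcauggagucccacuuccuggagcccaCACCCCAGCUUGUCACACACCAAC

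The ITGB1 stretch holds 28 cytidines, 11.2% of its bases, while the median over the same 250 bases of all 35116 start windows was 28.0%, and 99.5% of windows held at least as large a share. The letters CCG, which NAT10 modifies in ribosomal RNA, occur 0 times on the transcript strand and 1 time on the other strand of the ITGB1 stretch. Of all windows, 77.3% hold them on the transcript strand and 84.9% on either strand. For the unit CNN in 4 tandem copies, where N is any base, a run that can overlap CCG, the counts were 0 and 1. It was held by 69.7% of windows on the transcript strand and 86.8% on either strand. These counts describe letters only.

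Peaks were found on 27 of the 38 genes (71.1%), against 54.4% of all protein-coding genes, which were not matched to the members for gene span. Of the 27, 17 were marked in both arms, 7 only under the control hairpin and 3 only under the NAT10 hairpin. The 7 are 29.2% of the 24 members with a control peak, near the 26.3% of all protein-coding genes with a control peak that lacked a knockdown peak. The 3 are 15.0% of the 20 with a knockdown peak, near the 17.4% of the background. Both shares were close to those of the background.

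Peak numbers were higher in the knockdown list on these genes and lower over all protein-coding genes. The 38 genes had 135 control and 159 knockdown peaks, 1.18 knockdown peaks per control peak, and all protein-coding genes had 30411 and 25027, or 0.823. Integrin genes had 77 and 92 peaks (1.195) and laminin genes 58 and 67 (1.155). Among genes with peaks in both lists the ratio was 1.28 for the 17 members, 122 against 156 peaks, and 0.894 for the 6963 background genes. A higher knockdown than control number was found for 12 of 27 members (44.4%, background 33.3%), and fewer on 9 (33.3%, background 46.1%). The median difference per gene with a peak was 0, as in the background. Without ITGAV and ITGB1, chosen after their values were seen, the totals were 125 and 135, a ratio of 1.08. With scores of 20 or more only, the members had 18 and 23 peaks (1.28) and all protein-coding genes stood at 1.04. The background was thus not lower in the knockdown list at that cutoff. In lists of equal length these ratios were 1.36 and 1.008. There the cut itself brings the background totals near equality, because most peaks of both lists lie on protein-coding genes.

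**Figure D1:**
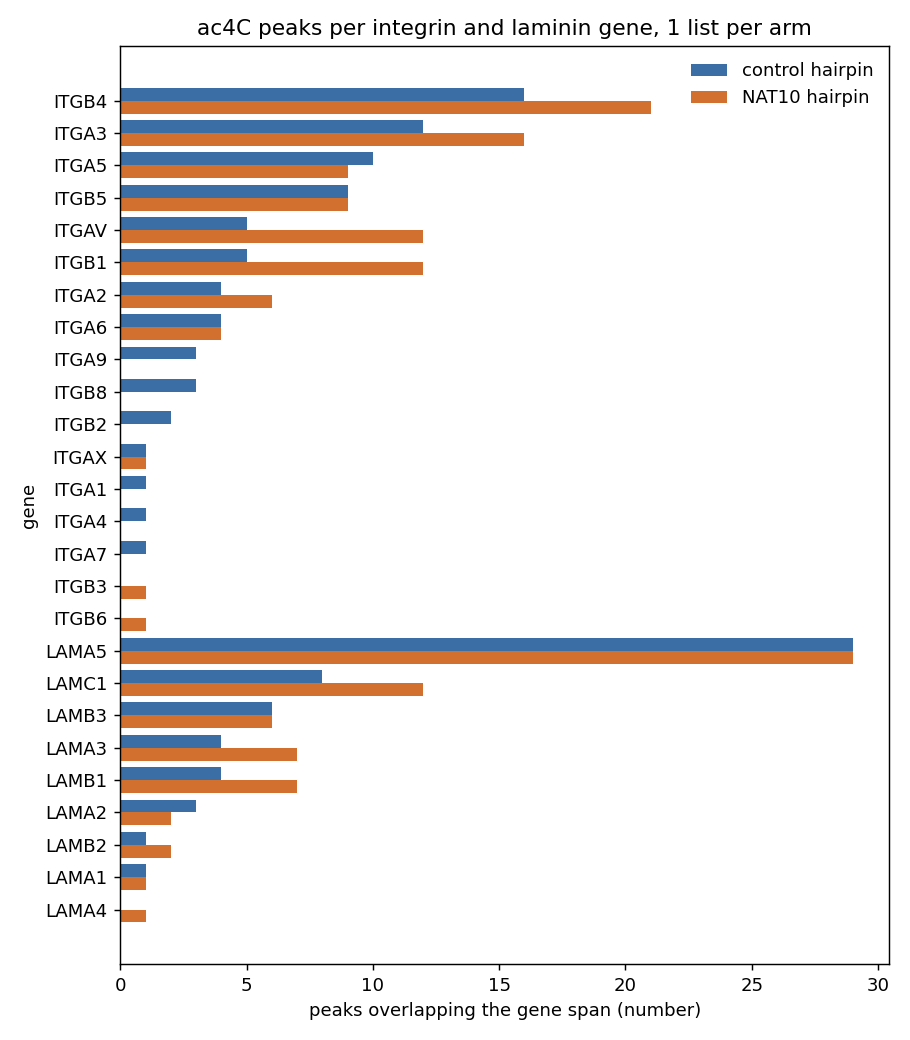
Number of ac4C peaks overlapping integrin and laminin genes with any peak, 26 of 27 shown (vertical axis, genes; horizontal axis, number of peaks), control hairpin in blue and NAT10 hairpin in orange, 1 list per arm and no error bars because replicates are not separated. LAMA5 had 29 peaks in both lists, ITGAV and ITGB1 went from 5 to 12, and genes with a blue bar alone had at most 3 peaks.

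Genes were called where the lists differed at least 2-fold with 4 or more peaks in the higher one. Of 13 members with that many peaks, 2 were called with more knockdown peaks, ITGAV and ITGB1 (15.4%, background 13.9% of 3783 genes), and 0 with fewer (background 32.5%). A share of 15.4% is near the background. Both called genes had 5 control and 12 knockdown peaks. Of the 607 protein-coding genes with 5 control peaks, 13 had at least 2-fold more knockdown peaks (2.14%) and 8 had 12 or more (1.32%). A gain of 7 or more peaks was found for 39 of 10915 genes with a peak (0.357%). These comparisons were picked after the counts were seen. With scores of 20 or more only, ITGAV had 1 control and 3 knockdown peaks and ITGB1 0 and 1, too few for a call.

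**Figure D2:**
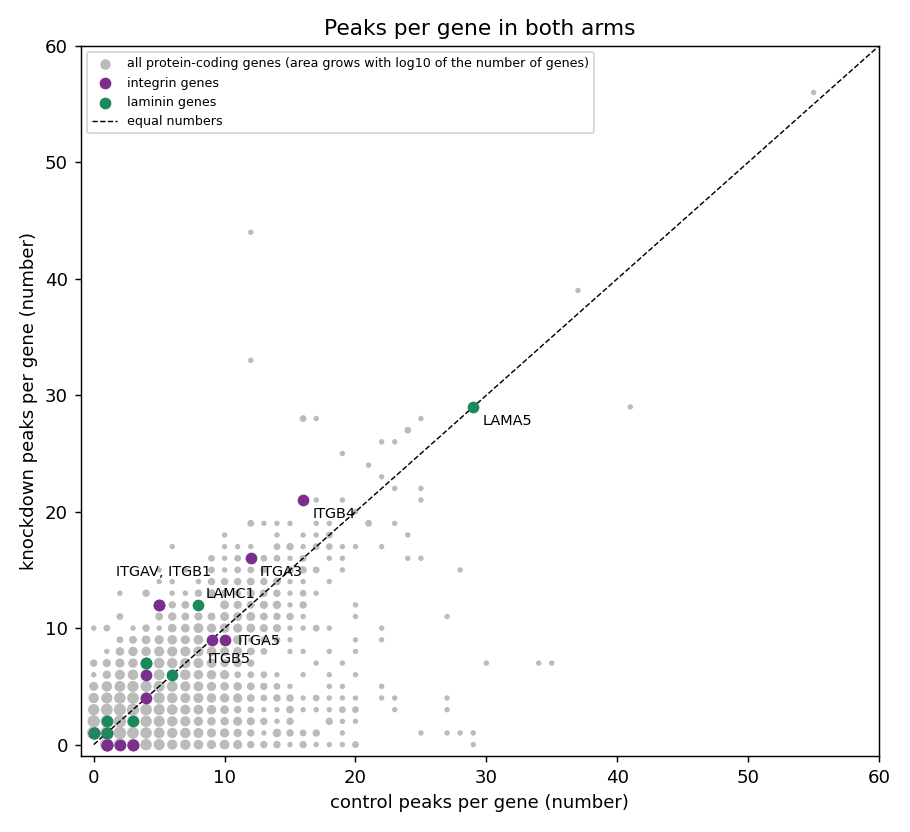
Control peaks per gene (horizontal axis) against knockdown peaks per gene (vertical axis), grey points for all protein-coding genes with a peak, larger where more genes share a position, purple for integrin and green for laminin genes (26 of the 27 with a peak coloured), with a dashed line at equal numbers. ITGAV and ITGB1 share the point at 5 and 12, LAMA5 lies on the line at 29, and ITGB4 lies above it at 16 and 21.

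ITGB1, the beta subunit shared by collagen, fibronectin and laminin receptors (chromosome 10, 32900318 to 32958230, hg38), had 5 control and 12 knockdown peaks, all on the minus strand of the gene. A knockdown counterpart was found for 4 of the 5 control peaks, and the remaining one, of 50 bp from 32929992 to 32930041, touched one without overlapping. In the knockdown list 8 peaks had no counterpart, among them a 100 bp peak from 32923621 to 32923720 with the highest score of the gene in that list, 21.7. The others reached both ends of the gene, from 32901547 to 32901621 near the low end and from 32957347 to 32957396, which is 835 to 884 bp after the annotated start. The peak over the internal start shown above had a score of 10.05, at the lower edge of the list. Peaks covered 2.33 kb of the gene for the control and 7.78 kb for the knockdown.

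ITGAV, the alpha subunit of the vitronectin and TGF-beta binding receptors (chromosome 2, 186590056 to 186680901), also had 5 and 12 peaks, all on the plus strand. Each of the 5 control peaks had a knockdown counterpart, and 6 of the 12 knockdown peaks had no counterpart. The first peak was the same in both lists, 100 bp from 186590410 to 186590509, or 355 to 454 bp after the start. A control peak of 22001 bp from 186600366 to 186622366 was met in the knockdown list by a pair of 100 bp peaks near its ends. The knockdown peak with the highest score of the gene, 51.9 (percentile 97.5 of its list), spanned 177 bp from 186675660 to 186675836 and had no control counterpart. Count and covered length went opposite ways, with 29.3 kb covered for the control and 9.66 kb for the knockdown. In peaks of up to 1000 bp alone, coverage was 616 bp for the control and 2168 bp for the knockdown.

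The partners of ITGAV differed among themselves. ITGB5 (chromosome 3, 124761948 to 124901418) had 9 peaks in both lists, of which 7 control and 6 knockdown peaks were shared. Its covered length was 14.1 kb in the control and 38.2 kb in the knockdown list, where 1 peak of 21298 bp had a score of 0.339. Counting only peaks that lie in no other gene, ITGB5 had 9 and 6. ITGB8, which presents latent TGF-beta, had 3 narrow control peaks near its high end, with scores from 11.7 to 12.0, and 0 knockdown peaks. Of the 1169 protein-coding genes with 3 control peaks, 20.7% had none in the knockdown list. ITGB6, its epithelial counterpart, had 0 control peaks and 1 knockdown peak, a span of 61004 bp with a score of 0. ITGB3, shared with platelets, had 0 and 1, and its 175 bp peak also lies in EFCAB13-DT. ITGA8, an RGD-binding alpha subunit that pairs with ITGB1, had no peak.

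Subunits of the laminin receptors carried the most integrin peaks. ITGB4, the long-tailed subunit that anchors hemidesmosomes to keratins (chromosome 17, 75721459 to 75757818), had 16 control and 21 knockdown peaks, with 13 and 20 shared. Counted with ITGB4, 23 protein-coding genes had 21 or more knockdown peaks (0.115%), a cutoff set at the count of ITGB4 after it was seen. Peaks covered 31.4 kb of its 36.4 kb for the control and 28.7 kb for the knockdown. The highest score on any member in either list, infinite for the control and 224.5 for the knockdown, belonged to the same minus-strand peak from 75751719 to 75757899, while all 15 other control and 20 other knockdown peaks lay on the plus strand. That peak also overlaps GALK1, a minus-strand gene, so its assignment to ITGB4 is uncertain. With scores of 20 or more only, ITGB4 had 4 control and 3 knockdown peaks, the opposite order, and with peaks within 50 bp merged it had 13 and 14.

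ITGA3 (chromosome 17, 50056110 to 50090481) had 12 control and 16 knockdown peaks, all on the plus strand, with 11 and 12 shared. Identical in both lists were a peak of 7017 bp from 50056544 to 50063560, a 150 bp peak from 50064061 to 50064210 and a 1576 bp peak from 50077372 to 50078947. The top peaks were neighbours rather than the same, a 216 bp control peak from 50081183 to 50081398 with a score of 95.2 and an 846 bp knockdown peak from 50080262 to 50081107 with a score of 134.2, and each overlapped another peak of the opposite list. ITGA6 (chromosome 2, 172427336 to 172506459), which pairs with ITGB4 or ITGB1, had 4 peaks in both lists, 3 of them shared, including 1 on the minus strand, the strand of ITGA6-AS1, which it overlaps. All of its peaks also overlap the span of PDK1-AS1. ITGA7, the laminin receptor subunit of muscle, had 1 control peak (773 bp, score 17.0) and 0 knockdown peaks.

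Of the fibronectin and collagen receptor subunits, ITGA5 (chromosome 12, 54395261 to 54419266) had 10 control and 9 knockdown peaks, with 8 shared in both and 5 identical in coordinates. Its top peak was the same 100 bp in both lists, from 54399860 to 54399959, with a score of 70.0 in the control and 31.6 in the knockdown list, scales that may not match. All of its peaks also overlap the long noncoding gene GPR84-AS1, and 2 in each list are on the plus strand, opposite to ITGA5. With scores of 20 or more only, ITGA5 had 4 control and 2 knockdown peaks. ITGA2 (chromosome 5, 52989352 to 53094779) had 4 and 6 peaks, 2 of them shared in both lists. ITGA1, another collagen receptor subunit, had a single control peak, scored 0, and none in the knockdown list, and ITGA10 and ITGA11 had none.

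**Figure D3:**
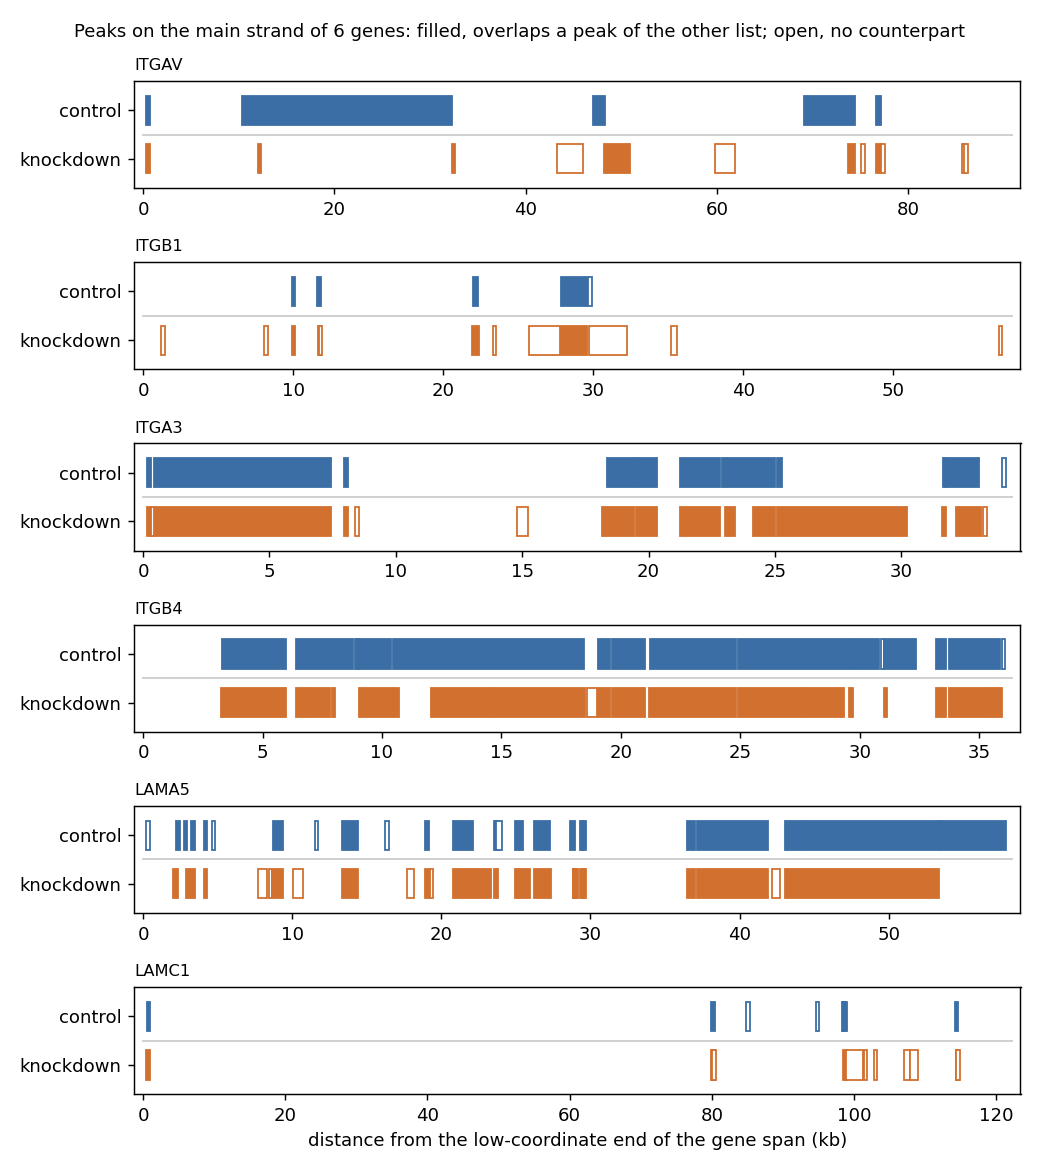
Peaks along ITGAV, ITGB1, ITGA3, ITGB4, LAMA5 and LAMC1, as distance in kb from the low-coordinate end of each gene span (horizontal axis), control above and knockdown below, on the strand that holds most peaks, with very narrow peaks widened to stay visible. Filled boxes overlap a peak of the other list and open boxes have no counterpart: ITGB1 has 8 open knockdown boxes and ITGAV 6, while ITGB4 has 1.

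Integrins of blood cells were nearly without peaks. ITGAL, ITGAM, ITGAD, ITGAE, ITGB7 and the platelet subunit ITGA2B had none in either list. ITGB2, the beta subunit of leukocytes, had 2 control peaks with scores of 11.1 and 10.6 and 0 knockdown peaks, and ITGAX had 1 in both lists at different positions. Leukocyte markers in the same lists had peaks on CD68 (5 in both) and PTPRC (1 in both), with none on CD3E and SPI1, and the 4 platelet markers had none. ITGA4 and ITGA9, subunits that bind VCAM and tenascin, had control peaks only, 1 and 3. The ITGA4 peak is 25 bp wide with a score of 10.3. All 3 ITGA9 peaks also overlap ITGA9-AS1 and the pseudogene NDUFAF4P3, 2 of them on the minus strand, and the widest, 36722 bp, has a score of 0. The plus-strand peak, 18769 bp from 37785071 to 37803839, has a score of 25.75, at percentile 92.88 of the control list.

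Among the 7 genes with control peaks only, which had 13 peaks together and at most 3 each, were the integrin genes ITGA1, ITGA4, ITGA7, ITGA9, ITGB2 and ITGB8. Markers of neurons and glia also had fewer knockdown peaks, 59 control and 5 knockdown peaks over 6 of the 7 genes. Of these 6, MAP2, RBFOX3, MBP and SLC1A2 had 0 knockdown peaks, so 4 of 6 were control only (background 26.3%). All 5 with 4 or more peaks in a list were called with fewer (background 32.5%). The hepatocyte markers ALB and TF and the endothelial marker KDR had 1 control peak and 0 knockdown peaks each, and the fibroblast marker COL1A1 had 0 and 1. GFAP had none in either list. The members' own control-only share, 29.2%, was near the background. Any relation of these markers to the missing knockdown peaks of ITGB8, ITGA9 and the other 5 genes was not tested.

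Among the ligands, LAMA5 (chromosome 20, 62309065 to 62367312) had the most peaks of the 38 genes, 29 in both lists or 4.98 per 10 kb, beside 4.40 in the control and 5.78 in the knockdown list for ITGB4. Counted with LAMA5, 9 protein-coding genes had 29 or more control peaks (0.0449%), a cutoff set at the count of LAMA5 after it was seen. Its 24 shared control and 23 shared knockdown peaks, 6 of them identical, were spread over the gene. The 5 control peaks without counterpart and the 6 knockdown ones all had scores under 20, as did all but 1 of the 29 peaks in each list. Covered length was 26.6 kb for the control and 26.05 kb for the knockdown. The control peak closest to the start, 62362431 to 62366951, was shared only at its edge, by a knockdown peak that ends at 62362455. In lists cut to equal length LAMA5 had 21 control and 29 knockdown peaks, and with peaks within 50 bp merged 25 and 23.

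The partners of LAMA5 in laminin-511 had more knockdown peaks in the lists as deposited. LAMC1 (chromosome 1, 183023420 to 183145592) had 8 control and 12 knockdown peaks with 5 shared in both lists. With peaks within 50 bp merged LAMC1 had 8 and 9, and with peaks up to 1000 bp 7 and 9. A 168 bp peak from 183121901 to 183122068 was identical in both and had the highest score of the gene in each, 21.25 and 25.91. Of the 7 knockdown peaks without counterpart, 5 lay between 183122244 and 183132422. Near the start a peak recurred from 183023920 to 183024119 in the control and from 183023870 in the knockdown list. LAMB1 (chromosome 7, 107923799 to 108003161) had 4 and 7 peaks with 3 and 2 shared. On the strand of the gene alone its numbers were 3 and 6, exactly at the 2-fold limit. With peaks up to 1000 bp they were 3 and 4, and with scores of 20 or more 0 and 0. LAMB2, the beta chain of kidney and synapse, had 1 and 2 peaks.

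Of the hemidesmosome chains, LAMA3 (chromosome 18, 23689453 to 23955066) had 4 control and 7 knockdown peaks, 2 of them shared in both lists, including an identical 2755 bp peak at the far end of the gene from 23951755 to 23954509. LAMB3 (chromosome 1, 209614870 to 209652425) had 6 in both, 3 and 4 shared. A control span of 12965 bp from 209637960 to 209650924 was met by 2 narrow knockdown peaks, 652 bp with a score of 25.7 and 998 bp with a score of 11.4, and covered length was 14.7 kb against 6.34 kb. The 314 bp knockdown peak that reaches into MIR4260, from 209623154 to 209623467, had a score of 11.6 and no control counterpart.

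The remaining laminin chains had few peaks. LAMA1, of embryonic basement membranes, had 1 in both lists, the same span of 37227 bp. LAMA2, the chain of muscle and nerve and the longest gene of the 38 at 633.4 kb, had 3 control and 2 knockdown peaks, all wider than 1000 bp. LAMA4, the chain of vessels, had 0 and 1, a 6745 bp span that also overlaps LOC107986633. LAMB4 and LAMC3 had none. Peak number did not follow gene span across the 38 genes, with Spearman's rho of 0.0146 in the control and 0.00058 in the knockdown list, given as a description over genes that share both libraries.

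Most peaks on these genes had a counterpart in the other list. On the same strand, 93 of 135 control peaks met a knockdown peak, 68.9% (95% Wilson interval 60.7 to 76.1), and the share over all protein-coding control peaks was 45.3% (44.7 to 45.8). In the other direction it was 100 of 159, 62.9% (55.16 to 70.02), against 54.9% (54.3 to 55.6). LAMA5 shared 24 of 29 control and 23 of 29 knockdown peaks, and ITGB4 13 of 16 and 20 of 21. ITGA3 shared 11 of 12 and 12 of 16, and ITGA5 8 of 10 and 8 of 9. These genes, picked after their values were seen, held many of the shared peaks. Knockdown peaks were shared less often on others, 4 of 12 on ITGB1, 5 of 12 on LAMC1 and 2 of 7 on both LAMA3 and LAMB1. Integrin peaks were shared in 68.8% and 66.3% of cases and laminin peaks in 69.0% and 58.2%, the last with an interval of 46.3 to 69.3 that holds the background. In peaks of up to 1000 bp the member shares were 61.4% (50.9 to 70.9) and 59.8% (50.3 to 68.6), beside 41.9% and 50.3%. When counterparts were also limited to 1000 bp, the member shares were 52.3% and 43.9% and those of all protein-coding genes 35.7% and 44.9%, so the members' knockdown share was then not above the background. In total 27 peaks were identical in both lists, 20.0% of the control and 17.0% of the knockdown peaks. Over all protein-coding genes these shares were 15.3% and 18.6%, so the members' knockdown share was not above the background. Intervals cover counting error only, and peaks of 1 gene are not independent.

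**Figure D4:**
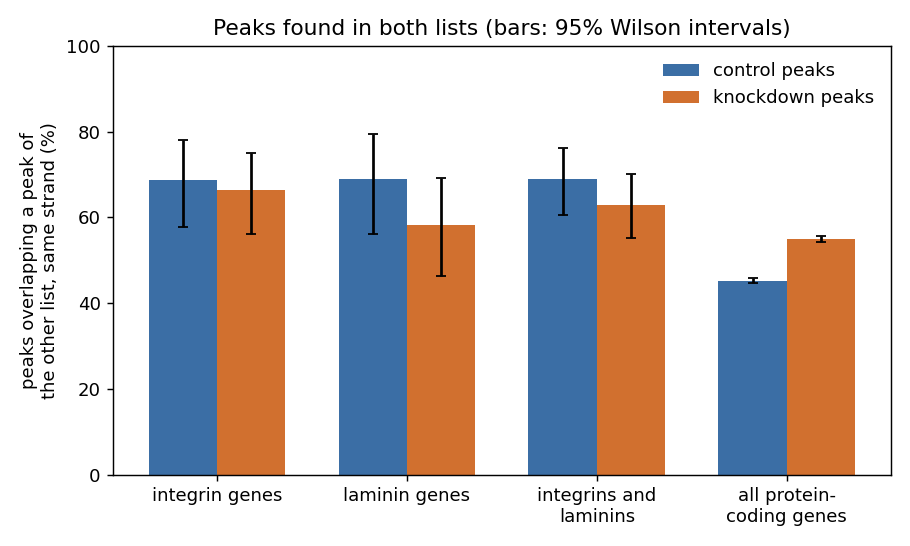
Share of peaks (vertical axis, percent) that overlap a peak of the other list on the same strand, for integrin genes, laminin genes, both together and all protein-coding genes, control peaks in blue and knockdown peaks in orange, with 95% Wilson intervals that cover counting error only. The control bar stands at 68.9% for the 38 genes and at 45.3% for all protein-coding genes, and the knockdown bars at 62.9% and 54.9%.

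Scores on the 38 genes resembled those elsewhere. Their median was 12.6 for the control and 12.8 for the knockdown, and over all protein-coding genes 12.1 and 12.4. A score of 20 or more was given to 18 control and 23 knockdown peaks. Of these, 16 and 19 had a counterpart of any score, 88.9% (interval 67.2 to 96.9) and 82.6% (62.9 to 93.0). The shares over all protein-coding genes were 63.55% and 70.33%, and the knockdown interval holds the background. Median width of all peaks on the 38 genes was 303 bp and 442 bp, against 175 bp and 163 bp for all protein-coding genes. Of narrow peaks, 20.5% in the control list (18 of 88, interval 13.35 to 30.03) and 17.8% of knockdown ones (19 of 107, 11.7 to 26.1) lay within the final 10% of the gene, read along the strand of the peak. The values over all protein-coding genes were 30.01% and 22.7%, and both member intervals hold them. Exons and coding sequence were not analysed here, and a peak written as 1 span can include introns.

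Peaks on the strand opposite to the gene were few. Among the 26 genes with known strand, 5 of 97 control and 5 of 119 knockdown peaks lay on the other strand, on ITGA5, ITGA6, LAMB1 and LAMC1, and 4 in each list were shared. The LAMC1 peak, 2255 bp from 183138577 to 183140831, is identical in both lists and lies in LAMC1-AS1. How strand was assigned to peaks is unstated in the labels.

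Other genes of the pathway were counted in the same way. Of 24 other basement membrane and integrin ligand genes, 14 were marked in both arms, 4 only in the control (FBN1, NTN1 and COL4A6 with 1 peak and SPARC with 3) and 1 only in the knockdown. That is 4 of 18 genes with a control peak, beside the background of 26.3%, and 1 of 15 with a knockdown peak, beside 17.4%. The gene marked only in the knockdown was FN1, fibronectin, the ligand of ITGA5, with 0 control and 10 knockdown peaks. The genes with the most peaks were HSPG2, perlecan, with 55 and 56, AGRN, agrin, with 22 and 23, and COL4A2, a collagen IV chain, with 17 and 28. Of 13 ligand genes with 4 or more peaks in a list, FN1 and COL4A1 (2 and 5) were past the 2-fold limit with more (background 13.9%). SPP1 (4 and 2) was exactly at it with fewer (background 32.5%). All 8 hemidesmosome and lateral partner genes with a peak had them in both lists, so 0 of 8 were marked only in the control, beside the background of 26.3%. They were led by DST (22 and 26), PLEC (19 and 25) and the tetraspanin CD151 (9 and 11). Of 6 with 4 or more peaks, 1, CD9 (2 and 4), was exactly at the 2-fold limit with more (background 13.9%), and 0 reached it with fewer (background 32.5%).

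Of 32 cytoplasmic activators and adaptors, 24 were marked in both arms, TNS1 only in the control (1 peak), and PTK2B (4) and ITGB1BP1 (1) only in the knockdown. That is 1 of 25 genes with a control peak, beside the background of 26.3%, and 2 of 26 with a knockdown peak, beside 17.4%. FLNA, filamin A, had 25 and 22 peaks, TLN1, talin, 15 and 14, ACTN4 14 and 13, and TNS3 11 and 16. Of 16 adaptor genes with 4 or more peaks, 3 reached the 2-fold limit with more (background 13.9%) and 1 with fewer (background 32.5%). They were ILK, the integrin-linked kinase, with 5 and 12, its partner PARVA with 3 and 6, and PTK2B with more, and TNS2 with 11 and 5 with fewer. PTK2, focal adhesion kinase, and PXN, paxillin, had equal numbers in both lists, 11 for PTK2 and 10 for PXN. Peaks per control peak came to 1.16 for the ligands, 1.18 for the hemidesmosome genes and 1.05 for the adaptors. Genes named for reaching the 2-fold limit, and PTK2 and PXN, were picked after their values were seen.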

How the data were processed

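RNA from 3 control and 3 knockdown immunoprecipitates and their inputs underlies the lists. Bowtie2 2.4.1, fastp 0.20.1 and the build hg38 are named in the submitters' processing notes. Caller, cutoff, use of inputs and pooling: not given in the sources used here. Each arm has 1 list, whose score per peak was deposited by the authors, infinite for 67 control and 60 knockdown peaks and 0 for 907 and 592. The control list was matched by its name and the other assigned to the knockdown.

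Gene spans came from RefSeq (GRCh38.p14), and strand, for 26 of the 38 genes, from its start windows. Overlaps were computed in pandas 2.3.3 and NumPy 2.4.6 (Python 3.11.15), intervals with SciPy 1.17.1 and figures with matplotlib 3.10.9, and the counting was tested on simulated data. Members with 5 or more peaks in a list, a difference of 3 or more, or peaks in 1 list only are described in full, and the others are accounted for more briefly. Pathway genes named are the 3 with most peaks over both arms (ties kept), those with peaks in 1 arm only, and others where the text says so. Members and lists were chosen with earlier results of these data known. Depth is unknown. Intervals are 95% Wilson intervals. Alternatives covered overlap, strand, score, list length, width, gene assignment and merging. Results for 1 member and 1 marker are not reported here individually.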

Additional observations from a re-analysis of the deposited data

How the results depend on the processing

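The excess in number of knockdown over control peaks on the 38 genes held under all alternatives run, with 1.11 to 1.36 knockdown peaks per control peak. All of these count peaks rather than covered length, which went both ways. It was 29.3 and 9.66 kb for ITGAV, and 2.33 and 7.78 kb for ITGB1, control first. Without these genes, chosen after their values were seen, the ratio in the lists as deposited was 1.08. The highest came from lists of equal length, where the cut itself brings all protein-coding genes near equality (1.008). The lowest came from merging peaks within 50 bp, a setting added after seeing the data like the limit at a score of 10. With scores of 20 or more, 9 members had control and 10 knockdown peaks, 7 both and 2 control only, on 18 and 23 peaks. Then 0 were called with more and 1, ITGA5, with fewer, sharing was 44.4% and 34.8%, and ITGB4 turned to a difference of -1. All protein-coding genes then stood at 33.9% and 32.5%, and at 1.04 knockdown peaks per control peak. With peaks up to 1000 bp, 88 control peaks were left and 4 members were called with more. Of 16 members with a knockdown peak, 1 was knockdown only. Sharing was then 52.3% and 43.9%, against 35.7% and 44.9% over all protein-coding genes. With peaks in 1 gene, 1 of 15 members with a knockdown peak was knockdown only. The cause of these shifts was not tested, beyond fewer peaks being counted. Background shares of calls and of genes in 1 list only are not at hand for the alternatives. The counts of members under them are therefore not read as results about the members. Of the 112 summary values under alternatives, 96 kept within 1.5 times or the interval. No paired analysis was possible because the lists do not separate replicates, so no replicate could be left out.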
